A study of Mus musculus with 4 samples.

Results

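The genes described here are 36 components of the unfolded protein response and of quality control in the endoplasmic reticulum (ER), out of 53379 genes in the deposited table. They are defined by gene name: stress sensors and their relatives, effectors, folding factors, translocation channel subunits and ER-associated degradation factors. RNA was recovered by immunoprecipitation from the ventricular-subventricular zone (V-SVZ), a germinal zone beside the lateral ventricles. The mice were wild-type, of strain CD1 and of postnatal day 7 or 8. One group was precipitated with anti-Cpeb4, against a cytoplasmic polyadenylation element-binding protein, and the other with anti-IgG as control. The experiment was done 2 times, each with 1 library per antibody, so that n = 2 libraries per group. No genotype or treatment differs between the groups. The labels do not say whether animals were pooled or whether the experiments used separate animals, so the spread may be technical. No library of unprecipitated RNA was analysed here, so a level in a precipitate cannot be set against the level in the tissue.

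Proteins that enter the ER are translocated through the Sec61 channel, folded by lectin chaperones and disulfide isomerases, and, when folding fails, sent back to the cytosol for degradation. When unfolded proteins build up, Ire1 (encoded by Ern1), Perk (Eif2ak3) and Atf6 start the unfolded protein response. Ire1 splices Xbp1 mRNA, Perk phosphorylates eIF2 and thereby favours translation of Atf4, and Atf6 is cut in the Golgi by the site-1 and site-2 proteases to release a transcription factor. CPEB proteins bind U-rich elements in mRNA, and Cpeb4 is known in liver and in dividing cells for keeping a set of mRNAs polyadenylated and translated, ER stress factors among them.

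The response reaches many of these genes through a short promoter element, the ER stress response element (ERSE, the letters CCAAT and CCACG with 9 bases between them), at which NF-Y and Atf6 or Xbp1 bind. It is shown because it is a feature that several of the genes share. The genes were chosen by name as members of this response, so the share that holds the element is not independent of that choice. In the RefSeq promoters of build GRCm38.p6, which run from 250 bases before to 50 after the start of a gene, 30 of the 36 genes had an entry (Ero1l as Ero1a). Both strands were searched. The ERSE stood in 5 of these 30 genes and in 0.119% of all 32851 promoters, and the shorter ERSE-II (ATTGG and CCACG with 1 base between them) stood in Herpud1 and in 0.0365% of all promoters. Capitals mark the fixed letters of each element, and each site is printed along the strand on which it matched.
Calr (chr8:84847070-84847098, plus strand): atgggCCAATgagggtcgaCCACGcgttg
Canx (chr11:50325795-50325823, minus strand): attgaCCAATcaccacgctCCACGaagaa
Derl3 (chr10:75893237-75893265, minus strand): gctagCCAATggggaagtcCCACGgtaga
Pdia6 (chr12:17266486-17266514, plus strand): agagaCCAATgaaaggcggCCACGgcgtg
Syvn1 (chr19:6046527-6046555, plus strand): cgcaaCCAATcggcggtagCCACGggaac
Herpud1 (chr8:94386372-94386392, plus strand): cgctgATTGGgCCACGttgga
The genes with an element were not called alike: Canx and Pdia6 were called higher in the Cpeb4 precipitates, whereas Calr, Derl3, Syvn1 and Herpud1 were not called. A match is a description of letters, not of binding, and the element was searched after the values were known. An amino acid response element (TGATG and AAT with 1 base between them), of the kind that Atf4 binds, stood in 0 of the 30 genes and in 0.965% of all promoters.

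Library depths were 22486721 to 35037171 reads. Markers of the cell types of the V-SVZ were present in all libraries. Their summed levels were 349 to 394 FPKM (fragments scaled by gene length and library depth, the deposited unit) in Cpeb4 and 176 to 177 FPKM in IgG precipitates for 4 neuroblast genes, and 650 to 675 against 378 to 388 FPKM for 5 stem cell and astrocyte genes. Within the latter sum, which Slc1a3 dominates, Slc1a3, Sox2 and Vim were called higher and Gfap was not called. Nes was lower (log2 -0.40, limma adjusted p = 0.0197). Of 2 cycling genes, Mki67 was lower (log2 -0.62, limma adjusted p = 0.00111) and Top2a was higher (log2 0.32, limma adjusted p = 0.0405). The sum of 3 ependymal genes was lower in Cpeb4 precipitates, at 38.3 to 45.2 against 53.3 to 54.8 FPKM, though Foxj1 was not called. The sums of oligodendrocyte, microglial, vascular and choroid plexus genes were higher. Of the microglial genes, P2ry12 was higher (log2 1.23, limma adjusted p = 1.6e-06), Cx3cr1 was lower (log2 -1.02, limma adjusted p = 3.87e-06) and C1qa was not called. Of the vascular genes, Rgs5 was called higher, and Cldn5 and Pecam1 were not called. Of the choroid plexus genes, Ttr and Folr1 were not called and Kl was not tested. Of 3 markers of plasma cells, a professional secretory type, 2 were below 1 FPKM in every library. Their part in the results below was not tested. In precipitates from bulk tissue, capture by the antibody, the number of cells of a type and RNA per cell cannot be told apart. The mRNA of the antibody's target Cpeb4 was at 32.5 ± 8.18 FPKM (mean ± SD, n = 2) against 9.35 ± 0.44 FPKM in IgG.

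The comparison of Cpeb4 with IgG asked which of these mRNAs came down with Cpeb4 beyond the background of the control antibody. Different components of the same ER machinery were called in opposite directions. Transcripts of the translocation accessory factors Sec62 and Sec63, the eIF2 phosphatase subunit Ppp1r15b, the degradation adaptor Sel1l, the retrotranslocation factor Derl2 and the sensor Atf6 were higher in Cpeb4 precipitates. Transcripts of the channel subunit Sec61b, the Atf6 paralog Atf6b and the ER-anchored factor Creb3 were lower. With all libraries in the fit, the classical stress effectors Atf4 and Xbp1 were not called under any of 5 scalings of the libraries. With a filter of at least 50 reads in place of 1 FPKM, Xbp1 was called higher (limma adjusted p = 0.0384). Ddit3 was not called with the authors' scaling and was lower under 3 of the other 4. Changes are differences of log2(FPKM + 1), Cpeb4 minus IgG, from limma with the experiment as a block, and a gene was called at a Benjamini-Hochberg adjusted p under 0.05 over all 15745 genes with at least 1 FPKM in at least 2 libraries.

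Of the 36 genes, 35 were tested, of which 17 were higher, 3 lower and 15 not called. Among all tested genes 38.8% were higher and 11.6% lower, so the shares here (48.6% and 8.57%) lay near the background and are not a result about the ER genes as a set. The median log2 fold change was 0.31, beside 0.19 over all tested genes. Only Sec62 and Ppp1r15b were called at a change of at least 2-fold. The libraries of the antibodies did not overlap for 28 genes with both Cpeb4 values above and 5 with both below (background 53.2% and 22.7%), and overlapped for Derl1 and Ddit3. The fits with 1 library left out carried no experiment block, so they differ from the main fit in that too. Without IgG replicate 1, 11 were higher and 0 lower (background 26.5% and 5.98%), and without IgG replicate 2, 10 and 1 (background 25.3% and 5.51%). Without Cpeb4 replicate 1 the counts were 16 and 3 (background 41.5% and 15.9%), and without Cpeb4 replicate 2 they were 23 and 2 (background 41.4% and 11.9%). Without the filter on low values, 11 of 36 were higher and 1 lower (background 8.35% and 1.87%, over a table that then holds many genes near 0). The counts over all tested genes fell along with those of the ER genes when an IgG library was left out.

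**Figure D1:**
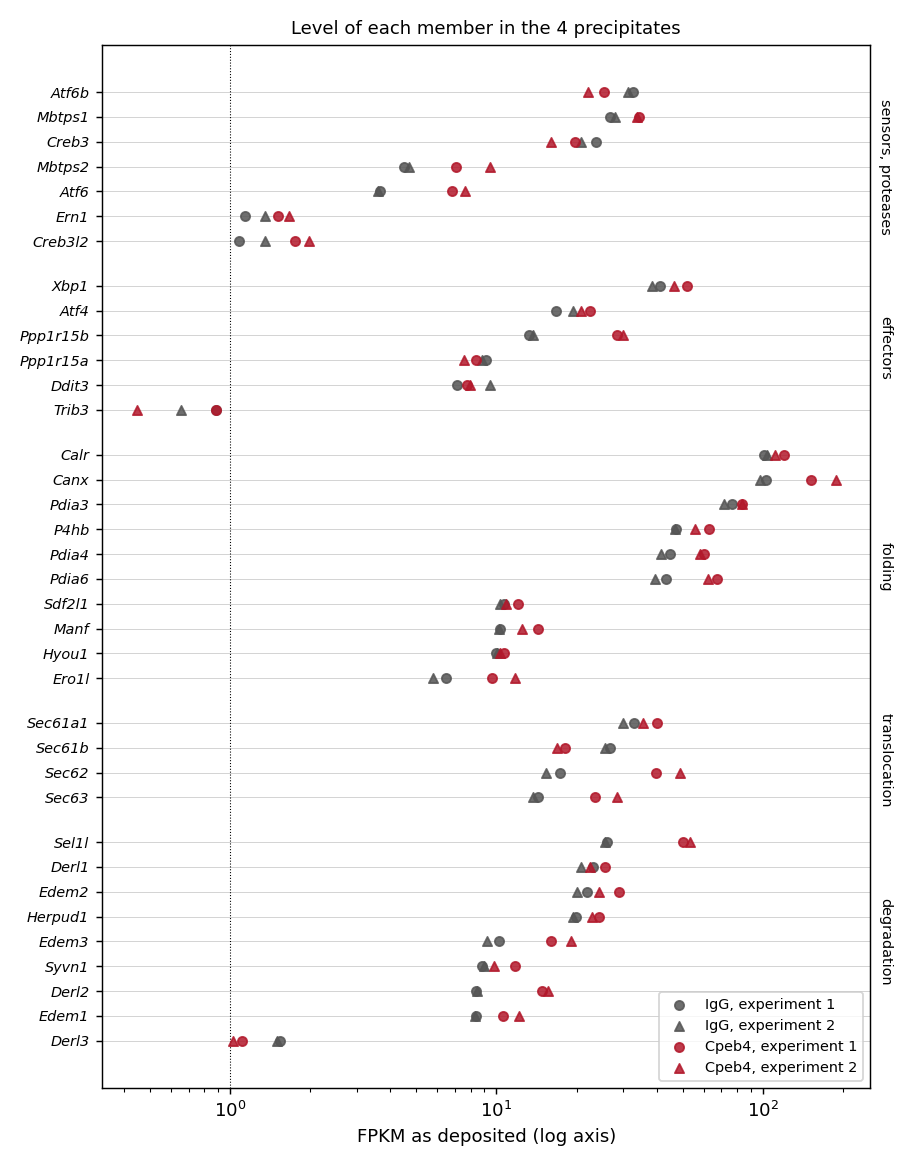
FPKM of the 36 genes on a log axis in each of the 4 libraries, grouped by role and ordered within a role by the mean of the IgG libraries. Circles are experiment 1 and triangles experiment 2, Cpeb4 libraries are red and IgG libraries grey, and the dotted line marks 1 FPKM. Canx reaches 188 FPKM in a Cpeb4 library, and Trib3 lies under 1 FPKM in all 4.

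The number of genes in each direction changed with the scaling of the libraries. With the authors' scaling 17 genes were higher and 3 lower. Trimmed mean of M-values gave 11 and 5 (background 25.6% and 25.6%), median centring on the tested genes 11 and 6 (background 23.6% and 30%), the upper quartile 8 and 8 (background 19.6% and 37%) and read totals 6 and 11 (background 17.5% and 42.4%). The median log2 fold change of all tested genes moved with them, from 0.19 to -0.04, -0.09, -0.18 and -0.24. Atf6, Ppp1r15b, Sec62, Sec63, Sel1l and Derl2 were higher under all 5 scalings (background 17.5%), and Atf6b, Creb3 and Sec61b were lower under all 5 (background 11.6%). Relative to the median of all tested genes, 24 of the 35 lay above it with the authors' scaling and 22 with read totals.

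**Figure D2:**
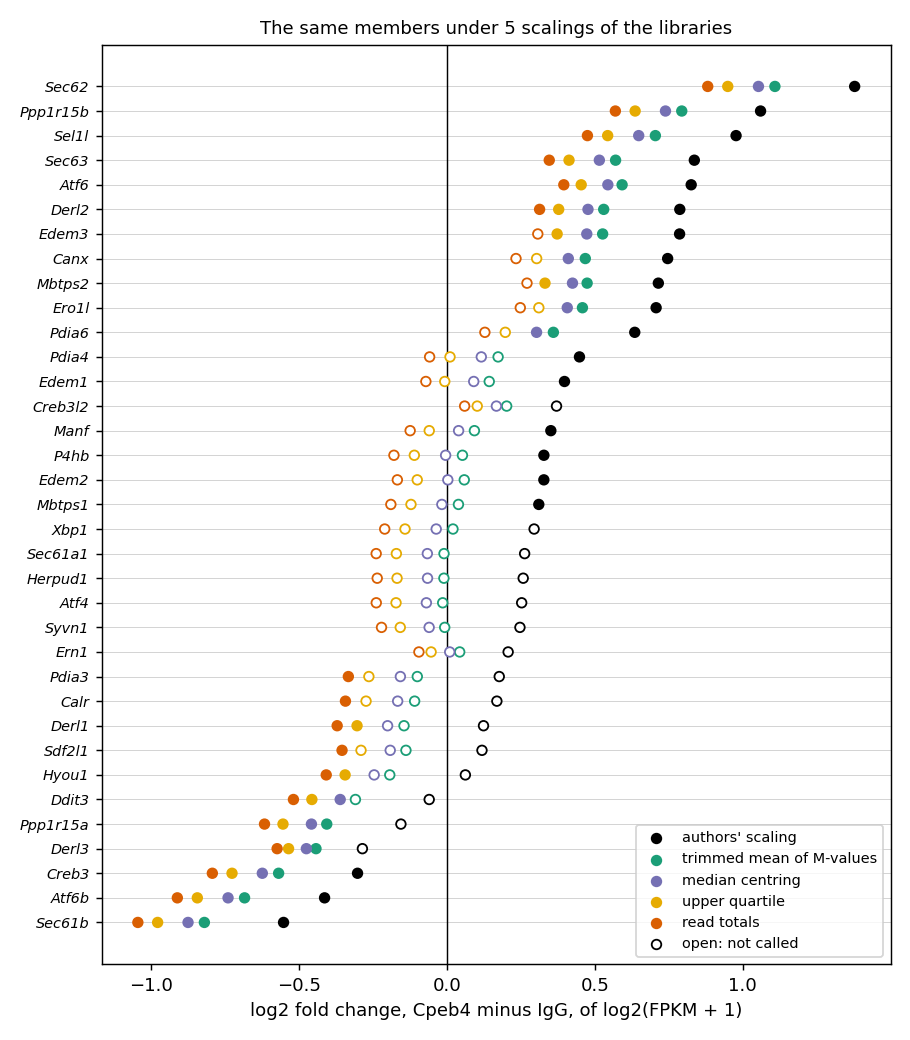
Log2 fold change of the 35 tested genes under 5 scalings of the libraries, ordered by the value with the authors' scaling (black). Filled points were called at an adjusted p under 0.05 and open points were not. Sec62, Ppp1r15b, Sel1l, Sec63, Atf6 and Derl2 are filled on the right under each scaling, and Sec61b, Atf6b and Creb3 on the left.

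Translocation genes held both the highest and the lowest change of the 35. Sec62 and Sec63 form the accessory complex that helps post-translational substrates into the channel. Sec62 was at 39.6 and 48.9 FPKM in the Cpeb4 libraries of experiments 1 and 2, against 17.3 and 15.4 FPKM with IgG. Every Cpeb4 value was above every IgG value, and Sec62 was 2.6-fold higher (FPKM + 1 scale; log2 1.38, SE 0.13, limma adjusted p = 5.43e-07), above 96% of tested genes. Sec63, which recruits the chaperone BiP to the channel, was at 23.5 and 28.4 against 14.3 and 13.8 FPKM (log2 0.84, SE 0.13, limma adjusted p = 4.71e-05). Its groups did not overlap either, and both genes changed more in experiment 2, at log2 1.61 for Sec62 and 0.99 for Sec63, than in experiment 1, at 1.15 and 0.68.

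Subunits of the channel itself were called in different ways. Sec61b, the small beta subunit, was at 18.2 and 16.9 FPKM in Cpeb4 and 26.8 and 25.6 FPKM in IgG precipitates. Both Cpeb4 values lay below both IgG values, and the change was log2 -0.55 (SE 0.12, limma adjusted p = 0.00121). That call was lost without IgG replicate 1 (limma adjusted p = 0.0581). Sec61a1, the pore-forming alpha subunit, was at 40.1 and 35.6 against 32.8 and 29.9 FPKM and was not called (log2 0.26, SE 0.12, limma adjusted p = 0.0846). Sec61a2, the other alpha subunit and not one of the 36 genes, was at 38.4 and 44.9 against 17.6 and 17.7 FPKM and was higher under all 5 scalings (log2 1.19, SE 0.12, limma adjusted p = 1.05e-06). Sec61g, the gamma subunit and also outside the 36, overlapped between the antibodies and was not called (log2 -0.02, SE 0.13, limma adjusted p = 0.9), but was lower under 3 of the other 4 scalings. Both were named after their values were seen. Sec62 lies on chromosome 3 from 30792876 to 30821263 and Sec61b on chromosome 4 from 47474661 to 47483233 (RefSeq, GRCm38.p6).

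Among the 7 sensors, ER-anchored factors and proteases, 3 were higher, 2 lower and 2 not called. Atf6 was at 6.81 and 7.6 FPKM in Cpeb4 libraries and at 3.66 and 3.59 FPKM in IgG. The groups did not overlap, and Atf6 was 1.77-fold higher (FPKM + 1 scale; log2 0.83, SE 0.13, limma adjusted p = 7.64e-05). Its paralog Atf6b, a related ER-anchored factor with weaker transactivation, was at 25.4 and 22.1 against 32.7 and 31.1 FPKM (log2 -0.41, SE 0.12, limma adjusted p = 0.00994). Atf6b was the more abundant of the pair in all 4 libraries, per length of gene, and its call was lost without either IgG library (limma adjusted p = 0.17 without replicate 1 and 0.111 without replicate 2).

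Both proteases that release Atf6 were higher with the authors' scaling. Mbtps2, the site-2 protease, was at 7.08 and 9.49 against 4.51 and 4.72 FPKM (log2 0.71, SE 0.13, limma adjusted p = 0.000336). Its groups did not overlap, and the call held under 4 of the 5 scalings (read totals log2 0.27, limma adjusted p = 0.0929). Mbtps1, the site-1 protease, was at 34.3 and 33.8 against 26.7 and 27.8 FPKM, with the Cpeb4 values above the IgG values. Its change of log2 0.31 (SE 0.12, limma adjusted p = 0.0439) was called only with the authors' scaling, was -0.19 with read totals, and was lost without either IgG library (limma adjusted p = 0.293 without replicate 1 and 0.209 without replicate 2).

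Among the remaining sensors and ER-anchored factors, Creb3 is a bZIP factor processed by the same proteases. Creb3 was at 19.7 and 16.0 FPKM in Cpeb4 and 23.6 and 20.7 FPKM in IgG libraries. The values did not overlap but lay close, at 19.7 against 20.7 FPKM, and the change of log2 -0.30 (SE 0.12, limma adjusted p = 0.0489) was lost without the experiment block (limma adjusted p = 0.0895), without IgG replicate 1 or 2 and without Cpeb4 replicate 2 (limma adjusted p = 0.458, 0.173 and 0.207). Ern1, the kinase and RNase Ire1, was near the floor at 1.51 and 1.66 against 1.14 and 1.35 FPKM and was not called (log2 0.21, SE 0.16, limma adjusted p = 0.313). Creb3l2, another such factor, was at 1.75 and 1.98 against 1.08 and 1.36 FPKM and was not called (log2 0.37, SE 0.16, limma adjusted p = 0.0674), but limma-voom on recovered reads called it higher (log2 0.62, limma adjusted p = 0.000741). For both genes the pseudocount of 1 is near the level itself, which shrinks the fold change.

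Of the 6 effectors, 1 was higher, 0 lower and 4 not called, and Trib3 was not tested. Ppp1r15b (CReP) is the constitutive partner that directs protein phosphatase 1 to eIF2. It was at 28.3 and 29.96 FPKM in the Cpeb4 libraries and at 13.2 and 13.7 FPKM in IgG. The libraries of an antibody lay close and the antibodies far apart, and Ppp1r15b was 2.08-fold higher (FPKM + 1 scale; log2 1.06, SE 0.12, limma adjusted p = 2.56e-06), at log2 1.04 in experiment 1 and 1.08 in experiment 2. Ppp1r15a (Gadd34), the stress-induced partner for the same phosphatase, was at 8.40 and 7.57 against 9.16 and 8.83 FPKM and was not called (log2 -0.16, SE 0.12, limma adjusted p = 0.321). Under each of the other 4 scalings Ppp1r15a was called lower, at log2 -0.62 with read totals (limma adjusted p = 5.82e-05) and -0.41 with trimmed mean of M-values (limma adjusted p = 0.0131).

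With all libraries, the authors' scaling and the filter at 1 FPKM, none of the 3 tested transcription factors among the effectors was called. Atf4 was at 22.5 and 20.9 FPKM in Cpeb4 and 16.8 and 19.4 FPKM in IgG libraries (log2 0.25, SE 0.13, limma adjusted p = 0.11). Its groups did not overlap, but the experiments differed, at log2 0.40 and 0.10. Xbp1, whose mRNA Ire1 splices, was at 51.8 and 46.5 against 41.2 and 38.6 FPKM (log2 0.29, SE 0.12, limma adjusted p = 0.057), and the table does not separate its spliced form. With a filter of at least 50 reads instead, Xbp1 was called higher (limma adjusted p = 0.0384). Without Cpeb4 replicate 2 the changes of Atf4 and Xbp1 were log2 0.31 and 0.37. Without Cpeb4 replicate 1 they were log2 0.20 and 0.22. The lack of a call for Atf4 and Xbp1 is therefore stated only for fits on all libraries. Ddit3 (Chop), the proapoptotic factor of late stress, was at 7.77 and 7.95 against 7.15 and 9.47 FPKM (log2 -0.06, SE 0.13, limma adjusted p = 0.731). With read totals, the upper quartile and median centring Ddit3 was called lower, at log2 -0.52, -0.46 and -0.36 (limma adjusted p = 0.000775, 0.0105 and 0.0272), and with trimmed mean of M-values it was not (log2 -0.31, limma adjusted p = 0.0624). The Cpeb4 values of Ddit3 lay between the IgG values, and it was the only tested gene of the 35 with opposite signs in the experiments. Trib3, a pseudokinase induced by Chop, was at 0.884 and 0.448 against 0.884 and 0.655 FPKM, on 18 to 55 reads, and was below the level needed for the test.

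**Figure D3:**
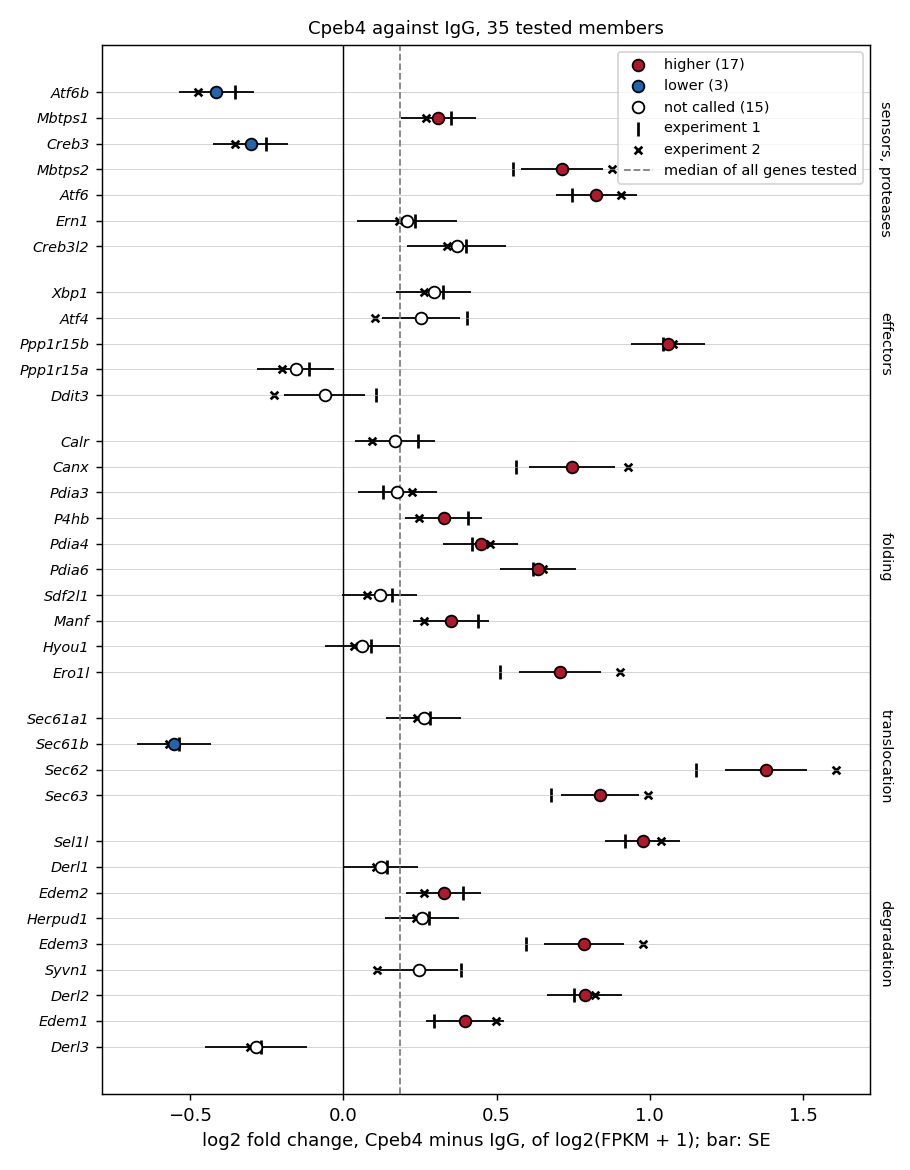
Log2 fold change (Cpeb4 minus IgG, on log2(FPKM + 1)) of the 35 tested genes with the SE as bar, grouped by role. Vertical ticks and crosses give experiments 1 and 2, red points were called higher (17), blue points lower (3) and white points were not called (15), and the dashed line is the median of all tested genes at 0.19. Sec62 and Ppp1r15b lie above 1, and Sec61b lies lowest at -0.55.

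Of the 10 folding factors, 6 were higher, 0 lower and 4 not called. The lectin chaperones, membrane-bound calnexin and soluble calreticulin, hold glycoproteins during folding. Canx (calnexin) was at 152 and 188 FPKM in Cpeb4 libraries and at 102 and 98.0 FPKM in IgG. The antibodies did not overlap (log2 0.75, SE 0.14, limma adjusted p = 0.000352), and Canx had the highest level of the 36 genes in both Cpeb4 libraries. Calr (calreticulin) was at 119.7 and 111 against 101 and 104 FPKM and was not called (log2 0.17, SE 0.13, limma adjusted p = 0.307). With read totals, but no other scaling, Calr was called lower (log2 -0.34, limma adjusted p = 0.0383). The Canx call was lost with upper quartile scaling (log2 0.30, limma adjusted p = 0.0723) and with read totals (log2 0.23, limma adjusted p = 0.172).

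Of the 4 disulfide isomerases, 3 were called higher. Pdia6 was at 67.1 and 62.6 against 43.4 and 39.5 FPKM (log2 0.63, SE 0.12, limma adjusted p = 0.00046), and Pdia4 at 60.4 and 58.4 against 45.0 and 41.7 FPKM (log2 0.45, SE 0.12, limma adjusted p = 0.00659). For each the Cpeb4 libraries lay above the IgG libraries. P4hb, the prototype isomerase PDI, was at 62.7 and 55.9 against 47.1 and 46.9 FPKM (log2 0.33, SE 0.13, limma adjusted p = 0.0395). Pdia3 (ERp57), which works with calnexin and calreticulin, was at 83.6 and 83.7 against 76.4 and 71.5 FPKM and was not called (log2 0.18, SE 0.13, limma adjusted p = 0.267). With read totals, but no other scaling, Pdia3 was called lower (log2 -0.33, limma adjusted p = 0.0412). Ero1l (Ero1a), the oxidase that recharges PDI, was at 9.63 and 11.7 against 6.46 and 5.81 FPKM (log2 0.71, SE 0.13, limma adjusted p = 0.000369). With read totals Pdia4 and P4hb turned to log2 -0.06 and -0.18, and Pdia6 and Ero1l stayed positive at 0.13 and 0.25 without a call. Pdia4 and P4hb lost their calls without either IgG library (limma adjusted p = 0.0762 to 0.255), and Pdia6 without IgG replicate 2 (limma adjusted p = 0.0533).

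Of 3 further stress-inducible ER factors, 1 was called. Manf, a secreted ER factor with neurotrophic activity, was at 14.4 and 12.5 against 10.3 and 10.2 FPKM (log2 0.35, SE 0.12, limma adjusted p = 0.0272), a call made only with the authors' scaling at log2 -0.12 with read totals and lost without either IgG library (limma adjusted p = 0.183 and 0.204). Hyou1 (Grp170), an exchange factor for BiP, was at 10.7 and 10.3 against 9.99 and 10.01 FPKM (log2 0.06, SE 0.12, limma adjusted p = 0.702). Sdf2l1, a cofactor of BiP, was at 12.1 and 10.9 against 10.7 and 10.3 FPKM (log2 0.12, SE 0.12, limma adjusted p = 0.45). The libraries of Hyou1 and Sdf2l1 did not overlap between the antibodies, but the changes were no larger than the SE, and both were called lower with read totals (log2 -0.41 and -0.35).

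Of the 9 degradation genes, 5 were higher, 0 lower and 4 not called. Sel1l is the adaptor of the Hrd1 ubiquitin ligase, which is encoded by Syvn1. Sel1l was at 50.2 and 53.4 FPKM in Cpeb4 and 26.1 and 25.5 FPKM in IgG libraries. These groups were well apart, 1.97-fold (FPKM + 1 scale; log2 0.98, SE 0.12, limma adjusted p = 6.8e-06). Syvn1 was at 11.8 and 9.77 against 8.80 and 8.98 FPKM and was not called (log2 0.25, SE 0.13, limma adjusted p = 0.123). The difference between adaptor and ligase was not tested. Herpud1, which binds that ligase and is strongly induced by stress, was at 24.3 and 22.9 against 19.9 and 19.3 FPKM and was not called (log2 0.26, SE 0.12, limma adjusted p = 0.0883).

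The derlins take substrates back through the membrane, and 1 of the 3 was called. Derl2 was at 14.8 and 15.7 FPKM in Cpeb4 libraries and at 8.37 and 8.45 FPKM in IgG. The replicates nearly coincided and the antibodies did not overlap (log2 0.79, SE 0.12, limma adjusted p = 5.95e-05). Derl1 was at 25.5 and 22.5 against 23.0 and 20.8 FPKM, overlapping between the antibodies (log2 0.12, SE 0.12, limma adjusted p = 0.421). It was called lower with read totals (log2 -0.37, limma adjusted p = 0.0174) and with the upper quartile (log2 -0.30, limma adjusted p = 0.047). Derl3, the paralog of secretory cells, was near the floor at 1.11 and 1.03 against 1.54 and 1.51 FPKM on 27 to 59 reads (log2 -0.29, SE 0.17, limma adjusted p = 0.167). Both Cpeb4 values of Derl3 lay below the IgG values, and the other 4 scalings called it lower, at log2 -0.57 with read totals (limma adjusted p = 0.00238).

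The Edem proteins trim mannose from glycoproteins and so mark them for degradation, and all 3 were higher with the authors' scaling. Edem3 was at 16.0 and 19.1 FPKM in Cpeb4 and at 10.2 and 9.23 FPKM in IgG libraries (log2 0.79, SE 0.13, limma adjusted p = 0.000112). Edem1 was at 10.6 and 12.2 against 8.42 and 8.32 FPKM (log2 0.40, SE 0.13, limma adjusted p = 0.0151), and Edem2 at 29.0 and 24.3 against 21.9 and 20.1 FPKM (log2 0.33, SE 0.12, limma adjusted p = 0.0346). No Cpeb4 library overlapped an IgG library for any of the 3. Edem3 was called under 4 of the 5 scalings (read totals log2 0.31, limma adjusted p = 0.0506), while Edem1 and Edem2 were called only with the authors' scaling and were at log2 -0.07 and -0.17 with read totals. Both also lost their calls without either IgG library (limma adjusted p = 0.132 to 0.343), and Edem2 without Cpeb4 replicate 1 (limma adjusted p = 0.0898).

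Ratios between functional partners within a library do not depend on how the libraries are scaled. The pairs were chosen after the values were seen, so they are a description and carry no test; with 2 libraries against 2, an exact two-sided permutation test cannot go below p = 0.333. The ratio of Sec62 to Sec61b was 2.18 and 2.89 in the Cpeb4 libraries of experiments 1 and 2 and 0.647 and 0.602 in IgG, a shift of 3.38-fold and 4.8-fold. Sec62 mRNA was thus the less abundant of the pair per length in both IgG libraries and the more abundant in both Cpeb4 libraries. Atf6 to Atf6b moved from 0.112 and 0.116 in IgG to 0.268 and 0.344 in Cpeb4 libraries. Ppp1r15b to Ppp1r15a moved from 1.44 and 1.55 to 3.37 and 3.96, that is by 2.34-fold and 2.56-fold. The ratios of Derl2 to Derl1 and Sel1l to Syvn1 shifted by less, 1.6-fold and 1.72-fold for the first and 1.44-fold and 1.92-fold for the second. Canx to Calr shifted by 1.25-fold and 1.79-fold. These 6 are among 13 pairs that were computed. Of the others, Sec63 to Sec61b shifted by 2.42-fold and 3.12-fold, Sec62 to Sec61a1 by 1.87-fold and 2.67-fold, and the pairs Edem3 to Edem2, Edem3 to Edem1, Mbtps2 to Mbtps1, Pdia6 to Pdia3 and Ero1l to P4hb by 1.12-fold to 1.71-fold in an experiment. For each of the 13 pairs both Cpeb4 libraries lay above both IgG libraries, with the gene of the higher change written first. The gene written first was also the longer one, except for Mbtps2 to Mbtps1 and Pdia6 to Pdia3. The ratios are not corrected for length, and the part of length in them was not tested.

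**Figure D4:**
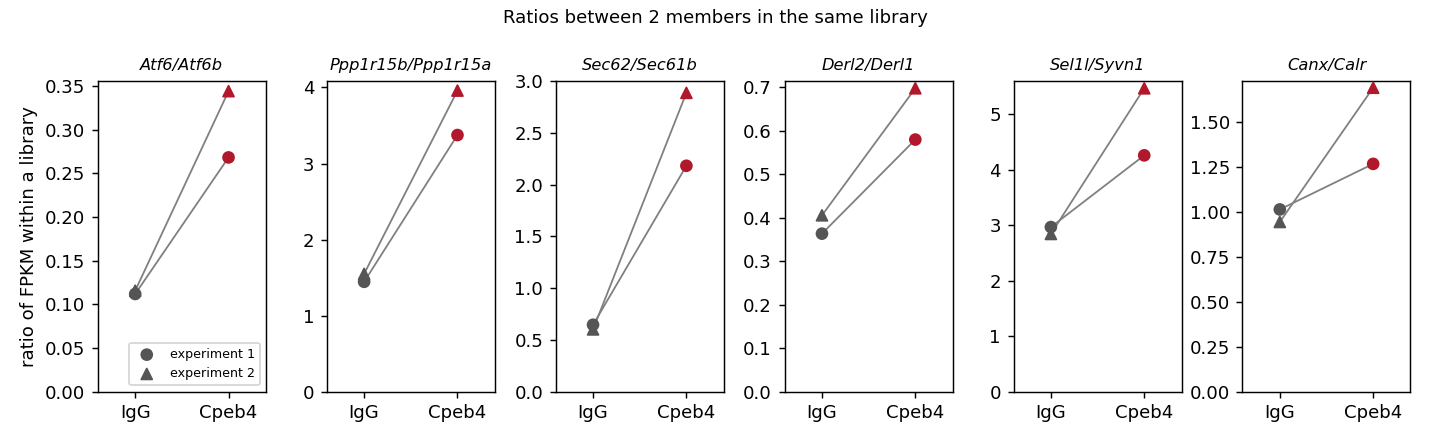
Ratio of the FPKM of 2 genes in the same library for 6 of the 13 pairs, with IgG libraries in grey, Cpeb4 libraries in red, circles for experiment 1, triangles for experiment 2, and a line joining the libraries of an experiment. All axes start at 0. In each panel both lines run upward, from 0.647 and 0.602 to 2.18 and 2.89 for Sec62 over Sec61b.

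The experiments ranked the genes similarly. Across the 35 genes the log2 fold changes of experiments 1 and 2 had a Pearson correlation of 0.94, beside 0.86 over all tested genes, and 34 of 35 had the same sign (all tested genes 83.4%). These are correlations across genes, which are not independent replicates, and all genes of an experiment share its libraries.

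Log2 fold changes were related to length. Across the 35 genes, log2 fold change and the log2 of the gene length implied by reads per FPKM had a Pearson correlation of 0.63 (Spearman 0.60), beside 0.33 (Spearman 0.30) over the 15633 tested genes with a length. Of the 17 genes longer than 3.2 kb, the median length here, 12 were higher and 0 lower, and of the other 18, 5 were higher and 3 lower. Among all tested genes, 50.2% of those longer than 3.2 kb were higher and 6.18% lower. Of the rest, 28.9% were higher and 15.9% lower. Sec61b is the shortest at 0.729 kb, and Atf6 the longest at 7.3 kb. Ern1 at 7 kb and Hyou1 at 4.96 kb were not called. The part of length in the calls was examined in 1 further fit. With a loess trend of the change on length and level removed, 6 genes were higher and 9 lower (background 23.9% and 25.7%), the 6 being Atf6, Mbtps2, Ppp1r15b, Sec62, Sel1l and Derl2. Atf6b, Creb3 and Sec61b were again lower. Of the 17 genes called higher, 11 lost that call, Sec63 among them (log2 0.23, limma adjusted p = 0.14), and Mbtps1 was called lower (log2 -0.34, limma adjusted p = 0.026). Atf6, Ppp1r15b, Sec62, Sel1l and Derl2 kept their call under each of the 14 alternatives run. The share of all tested genes that did so was not computed, so this is not a result about the ER genes as a set.

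**Figure D5:**
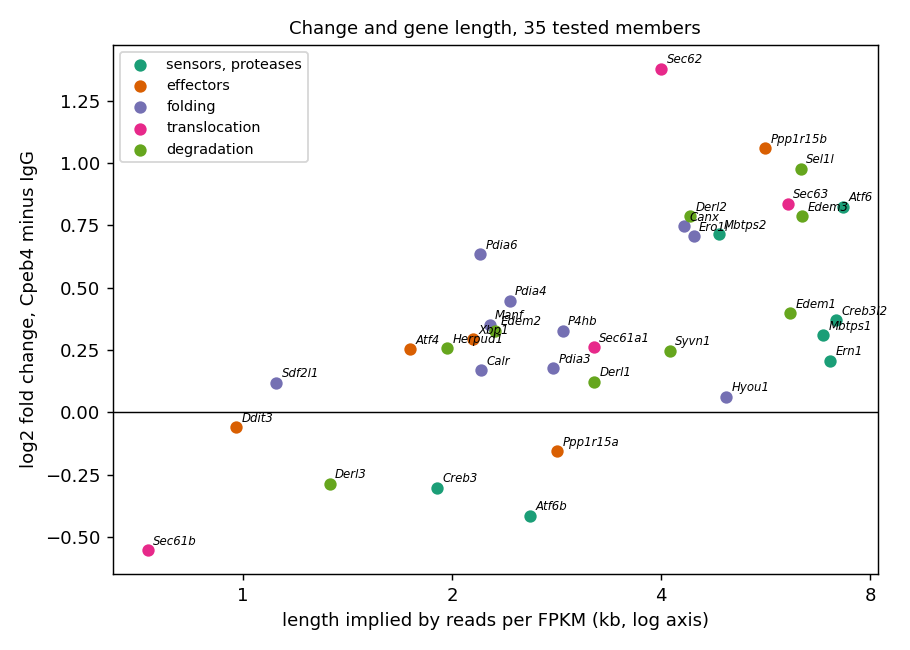
Log2 fold change (Cpeb4 minus IgG) against the length implied by reads per FPKM, in kilobases on a log axis, for the 35 tested genes coloured by role. Sec61b, at 0.729 kb, has the lowest change, and Sec62, at 4 kb, has the highest.

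The authors' deposited table gives its own comparison of these libraries. Of the 36 genes, 13 were called higher and 2 lower at a threshold of 0.05 in the authors' deposited table, beside 21.7% and 4.93% of its 22709 genes with an adjusted p. All 15 were called here in the same direction. The 5 genes called only here were Creb3, Mbtps1, P4hb, Manf and Edem2, with adjusted p of 0.104 to 0.187 in the authors' deposited table. Its log2 fold changes, which carry no pseudocount, were 1.42 (SE 0.17) for Sec62, 1.11 (SE 0.15) for Ppp1r15b and -0.59 (SE 0.22) for Sec61b in the authors' deposited table.

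Other genes of the pathway were taken from a list of 129, of which 122 were tested. Of these, 72 were higher, 9 lower and 41 not called (59% and 7.38%, beside 38.8% and 11.6% of all tested genes), with a median log2 fold change of 0.45; under all 5 scalings 36 were higher and 9 lower. Among the 29 further degradation genes 20 were higher and 2 lower, and among the 19 tested translocation genes 12 were higher and 1 lower. Fam8a1, a partner of the Hrd1 ligase, was at 81.6 and 117 FPKM in Cpeb4 and 21.5 and 24.1 FPKM in IgG libraries (log2 2.06, SE 0.13, limma adjusted p = 4.4e-08). The signal peptidase subunit Spcs3, the translocon-associated subunit Ssr3 and the membrane thioredoxin Tmx1 followed at log2 1.99, 1.93 and 1.71. The lowest were the oligosaccharyltransferase subunit Dad1 at log2 -1.47 (limma adjusted p = 1.27e-07), the translocon-associated subunit Ssr4 at -0.79, the prolyl isomerase Fkbp2 at -0.73 and the degradation factor Aup1 at -0.69. As with Sec62 and Sec61b, subunits of 1 complex were called in opposite directions, Ssr3 higher and Ssr4 lower, under all 5 scalings.

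Other known members of the response outside the 36 genes spread widely. Hspa5 (BiP), the ER chaperone that holds the sensors inactive, was at 74.4 and 72.5 FPKM in Cpeb4 and 54.0 and 50.5 FPKM in IgG libraries (log2 0.48, SE 0.13, limma adjusted p = 0.00422). Eif2ak3 (Perk) was at 13.0 and 12.9 against 8.46 and 8.06 FPKM (log2 0.59, SE 0.12, limma adjusted p = 0.000822). Neither gene overlapped between the antibodies. The Hspa5 call was made only with the authors' scaling, and the Eif2ak3 call under 2 of the 5. Hspa5 lay above 70.1% and Eif2ak3 above 75.3% of tested genes. Chosen after their values were seen, the BiP cochaperones Dnajc3 (log2 1.65, limma adjusted p = 6.91e-08) and Dnajb9 (log2 1.258, limma adjusted p = 2.04e-06) were higher under all 5 scalings. Hsp90b1 (Grp94), the ER paralog of Hsp90, overlapped between the antibodies and was not called with the authors' scaling (log2 -0.02, limma adjusted p = 0.919), but was lower under 3 of the other 4.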

How the data were processed

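The members and lists were chosen with earlier results of these data known. Per the labels' protocols, cDNA from precipitated RNA was made with the SMART-Seq v4 kit, which marks neither strand nor molecule, and Nextera XT was used for the libraries. Tools listed in the submitters' processing notes are Trim Galore 0.5.0, STAR 2.6.0c, HTSeq 0.6.1p2, DESeq2 1.26.0, with build mm10 and no roles stated. Per the file headers, the deposited table holds FPKM per library and the authors' comparison: a mean level (a signal, reads over size factors), log2 fold changes, a test score and p-values.

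FPKM and mean level together gave back whole reads for 100% of values within 0.01 read, used for depth, lengths, scalings and limma-voom. Genes with at least 1 FPKM in at least 2 libraries were tested with limma 3.58.1 (R 4.3.3, trended prior, pseudocount 1, two-sided), with the experiment as a block because the labels number experiments across antibodies. Same-numbered libraries' deviations correlated at 0.00238. The block left 1 residual degree of freedom, and the prior added 14.6. All fits with 1 library left out were made without the block, so a call lost there is not due to the library alone. Reads counted after amplification are not independent molecules.

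The fit was tested on 5 simulated tables of 15633 genes, of which 200 were changed. It recovered 90.8% of the changes of size log2 1 and 96.4% of those of size log2 2. Of all calls, 23.5% fell on unchanged genes. Among the 11601 genes with a mean of at least 200 reads, 0.53% of calls did. The simulated reads had a fixed dispersion of 0.005, no experiment effect and no error of scaling, and few genes changed. These shares are therefore not error rates of the calls in the data. All members are named; other pathway genes named are the 4 highest and 4 lowest called, Hspa5 and Eif2ak3, and 5 more are marked as chosen after their values were seen. The table held 0 columns of other samples.
The genome sequence and protein tables were not used here, so elements in the 3′ UTR and protein features were not analysed here.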

Additional observations from a re-analysis of the deposited data

How the results depend on the processing

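With 2 libraries per group, the counts rest on few samples and on the scaling. Derl3 (27 to 59 reads) and Trib3 (18 to 55 reads) are limited by depth. Ern1 and Creb3l2 had 229 to 322 and 223 to 381 reads, and for them the pseudocount of 1 is near the level. The cause of each change below was not tested. The genes higher and lower (17 and 3) were 6 and 11 with read totals, 8 and 8 with the upper quartile, 11 and 5 with trimmed mean of M-values, 11 and 6 with median centring, 11 and 1 without the filter and 6 and 9 with the length and level trend removed. Leaving out 1 library in turn gave 10 to 23 higher and 0 to 3 lower, the fewest higher without IgG replicate 2 and the fewest lower without IgG replicate 1. Over all tested genes these fits gave 3977 to 6534 higher and 867 to 2497 lower, and the fit without the filter 3915 and 875. The other pathway genes higher and lower (72 and 9) were 36 and 43 with read totals, 39 and 36 with the upper quartile, 49 and 23 with trimmed mean of M-values, 46 and 30 with median centring, 49 and 5 without the filter and 41 and 27 with the trend removed, and leaving out 1 library gave 50 to 78 higher and 3 to 14 lower. Over all tested genes the shares higher and lower were 17.5% and 42.4% with read totals and 19.6% and 37% with the upper quartile. They were 25.6% and 25.6% with trimmed mean of M-values and 23.6% and 30% with median centring. With the trend removed they were 23.9% and 25.7%. The fit without the replicate block gave 16 and 2, losing Creb3 (limma adjusted p = 0.0895) and Edem2 (0.0536), and 69 and 8 among the other pathway genes. Over all tested genes that fit gave 6007 and 1714. The pairing comes from the experiment number in the labels, and the block changed no other call of the 35 genes. A pseudocount of 0.1 gave 16 and 2, limma-voom 17 and 3 and a minimum of 50 reads 19 and 4. Over all genes tested in each fit the counts were 5989 and 1717, 6437 and 1851, and 6447 and 1819.

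With read totals the log2 fold change changed sign for Ern1 -0.0948, Mbtps1 -0.19, Atf4 -0.24, Xbp1 -0.21, Calr -0.34, Pdia3 -0.33, Pdia4 -0.0586, P4hb -0.18, Hyou1 -0.41, Sdf2l1 -0.35, Manf -0.12, Sec61a1 -0.24, Syvn1 -0.22, Derl1 -0.37, Edem1 -0.0713, Edem2 -0.17, Herpud1 -0.24. With the upper quartile the log2 fold change changed sign for Ern1 -0.0536, Mbtps1 -0.12, Atf4 -0.17, Xbp1 -0.14, Calr -0.27, Pdia3 -0.26, P4hb -0.11, Hyou1 -0.34, Sdf2l1 -0.29, Manf -0.0599, Sec61a1 -0.17, Syvn1 -0.16, Derl1 -0.30, Edem1 -0.00741, Edem2 -0.10, Herpud1 -0.17. With trimmed mean of M-values the log2 fold change changed sign for Atf4 -0.0144, Calr -0.11, Pdia3 -0.10, Hyou1 -0.19, Sdf2l1 -0.14, Sec61a1 -0.00998, Syvn1 -0.00757, Derl1 -0.15, Herpud1 -0.0103. With median centring the log2 fold change changed sign for Mbtps1 -0.0172, Atf4 -0.0696, Xbp1 -0.0363, Calr -0.17, Pdia3 -0.16, P4hb -0.00449, Hyou1 -0.25, Sdf2l1 -0.19, Sec61a1 -0.0663, Syvn1 -0.0602, Derl1 -0.20, Herpud1 -0.0656. With the trend removed the log2 fold change changed sign for Mbtps1 -0.34, Xbp1 -0.12, Calr -0.36, Canx -0.0191, Pdia3 -0.40, Pdia4 -0.0252, P4hb -0.21, Hyou1 -0.38, Sec61a1 -0.25, Syvn1 -0.14, Derl1 -0.32, Edem1 -0.0622, Edem2 -0.0159, Herpud1 -0.0255. Without IgG replicate 2 it changed sign for Ddit3, to 0.12. No sign changed under the other 8 alternatives. The alternatives for the ratios were chosen after seeing the data.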
